A study of Mus musculus with 899 samples.

Results

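The miR-200 family comprises 5 mature miRNA, mmu-miR-200a-3p, mmu-miR-200b-3p, mmu-miR-429-3p, mmu-miR-200c-3p and mmu-miR-141-3p. They were taken by name from a table of 1915 mature miRNA counted in mouse plasma, and all 5 were among the 483 miRNA abundant enough to be tested. No measured value was used as a filter for the choice, which was made with earlier results of these data known.

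The family is characteristic of epithelial cells. Its members repress the transcription factors Zeb1 and Zeb2, which in turn repress both miR-200 gene clusters, so that the family and these factors are usually found at opposite levels. It is known for holding cells in an epithelial state and falls when they take on mesenchymal features. The airway, the gut, glands and the skin all express it, and plasma miRNA comes from many tissues, blood cells included. Plasma values therefore do not name a source, and fewer releasing cells cannot be told apart from less RNA released per cell.

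The samples came from 196 mice of strains C3H (C3Hf/Sed/Kam) and C57Bl/6, both without any engineered allele named in the labels. Irradiated mice received about 14 Gy to the whole thorax at 8 to 12 weeks of age, with the rest of the body shielded, and controls were sham irradiated. The 402 C3H samples came from 64 irradiated and 32 sham mice, and the 497 C57Bl/6 samples from 68 irradiated and 32 sham mice. Blood was taken 14 days before irradiation (PT), then at day 2 (D2) in some mice or day 5 (D5) in others. Monthly samples followed until month 4 (M4) in C3H and month 6 (M6) in C57Bl/6. Of the 68 irradiated C57Bl/6 mice, 64 had a sample before irradiation and all had one at month 1. Their day 2 and day 5 samples came from 32 mice each. Males were irradiated at 8 to 10 and females at 10 to 12 weeks, so that sex and age cannot be told apart. Each strain was made up of 2 sets of mice, numbered in the sample titles as 2 and 4 in C3H and as 1 and 3 in C57Bl/6. Sets 3 and 4 were not sampled after month 1. A set of 1 strain never holds mice of the other.

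The 5 mature sequences are shown 5′ to 3′ because the seed, the stretch that pairs with target mRNA, divides the family. Bases 2 to 8, the seed, are in capitals.
mmu-miR-200b-3p: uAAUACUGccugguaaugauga
mmu-miR-200c-3p: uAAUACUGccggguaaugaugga
mmu-miR-429-3p: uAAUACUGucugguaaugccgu
mmu-miR-200a-3p: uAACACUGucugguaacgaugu
mmu-miR-141-3p: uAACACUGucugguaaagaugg
The sequences are those of RefSeq on GRCm38.p6. The seed AAUACUG is shared by miR-200b-3p, miR-200c-3p and miR-429-3p, and the seed AACACUG by miR-200a-3p and miR-141-3p. Counted from the 5′ end, miR-200b-3p and miR-200c-3p differed within their first 22 bases at U11G and A22G alone, and miR-200a-3p and miR-141-3p at C17A and U22G alone. Reads of such pairs can be assigned to the wrong member where mismatches are tolerated, and how the counting treated them is not given in the sources used here.

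The grouping by seed crosses the grouping by gene. On chromosome 4, Mir429 (156053905 to 156053987), Mir200a (156054896 to 156054985) and Mir200b (156055681 to 156055750) lie on the minus strand within 1846 bases (GRCm38). All 3 hairpins are inside the annotated span of Ttll10 and of the noncoding transcript Gm13648, in introns except that Mir429 overlaps the exon of Gm13648. On chromosome 6, Mir141 (124717914 to 124717985) and Mir200c (124718322 to 124718390) lie on the minus strand within 477 bases, in introns of the noncoding gene Gm15884. Each cluster therefore holds both seeds.

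All 5 members had reads in every sample of both strains. Levels are given as CPM, reads scaled by library size and edgeR's TMM factors, or as their log2 values. The median over all samples was 9146 CPM for miR-200a-3p, which placed it at rank 16 of the 483 tested miRNA. It was 3130 CPM for miR-429-3p, 3041 CPM for miR-141-3p, 2349 CPM for miR-200b-3p and 221 CPM for miR-200c-3p, at rank 106. Together the members made up a median of 1.81% of the library size after TMM scaling, from 0.356% to 7.60%. With TMM factors of 0.372 to 1.59, this is not the share of raw reads in a sample.

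The order of the levels was stable at its ends. MiR-200a-3p had the highest and miR-200c-3p the lowest median of the family in all 32 groups of strain, treatment and time point. MiR-200a-3p exceeded miR-429-3p in 898 samples, and miR-200b-3p exceeded miR-200c-3p in 897. In the middle, miR-429-3p was above miR-141-3p in 457 samples (50.8%), so that these neighbours were not separated. The lowest group medians of miR-200a-3p (3969 CPM) and miR-200b-3p (1578 CPM) were those of C3H mice before irradiation, and that of miR-200c-3p (134 CPM) was in C57Bl/6 mice before irradiation. The highest group medians were found late, at month 3 to month 6, in sham mice. They were 14867 CPM for miR-200a-3p, 4818 CPM for miR-429-3p, 4208 CPM for miR-200b-3p, 7121 CPM for miR-141-3p and 812 CPM for miR-200c-3p. Library preparation captures each miRNA with its own efficiency, which was not measured, so that levels of different members are levels of reads.

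**Figure D1:**
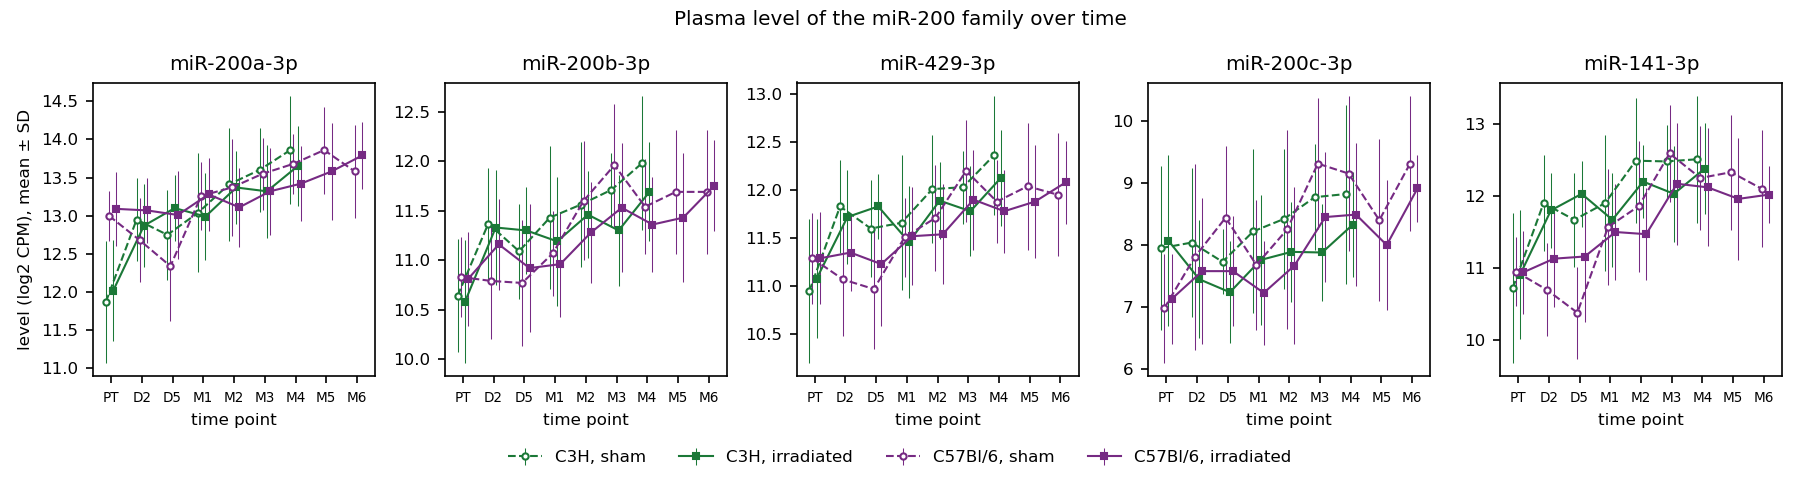
Level of each member (log2 CPM, mean ± SD over mice) against time point for the 4 combinations of strain and treatment, each panel with its own axis. MiR-200a-3p, miR-200b-3p, miR-429-3p and miR-141-3p stood lower before irradiation than at the late time points in sham and irradiated mice alike, and the irradiated C57Bl/6 and C3H mice had lower means of miR-200c-3p than sham mice at every time point after irradiation.

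The partner strands, the 5p arms cut from the other side of the same hairpins, were scarce. Median levels were 21.6 CPM for miR-200b-5p, 16.0 for miR-200a-5p, 14.8 for miR-141-5p and 5.09 for miR-200c-5p. MiR-429-5p had a read in 10 samples only and was not tested.

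Library totals lay between 206490 and 11814515 reads (median 1475030). At this depth the lowest count of any member was 14 reads, for miR-200c-3p, and the median counts ranged from 322 reads for that member to 13289 for miR-200a-3p. Counting error was small beside the spread between mice for the abundant members. Plasma with hemolysis above a limit had been left out by the authors. Of the red cell miRNA checked, miR-451a, miR-144-3p, miR-144-5p and miR-486a-5p, the summed level still ranged from 6305 to 157293 CPM over the samples.

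The first comparison asked whether irradiation of the thorax changed the family in plasma. Before irradiation, mice later irradiated and mice later sham treated did not differ in any of 10 comparisons (5 members in 2 strains), with log2 differences of -0.05 to 0.18 and 0% of all tests called. In C3H mice, 0 of 30 comparisons of a member at 6 time points passed the threshold by edgeR's quasi-likelihood test (adjusted p under 0.05), where 2.42% of all tests of the 483 miRNA did. In these 30, 10 had an unadjusted p under 0.05, and DESeq2 and limma-voom each called 0. In C57Bl/6 mice, 3 of 40 comparisons at 8 time points passed, against 4.76% of all tests. All 3 were at day 5.

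**Figure D2:**
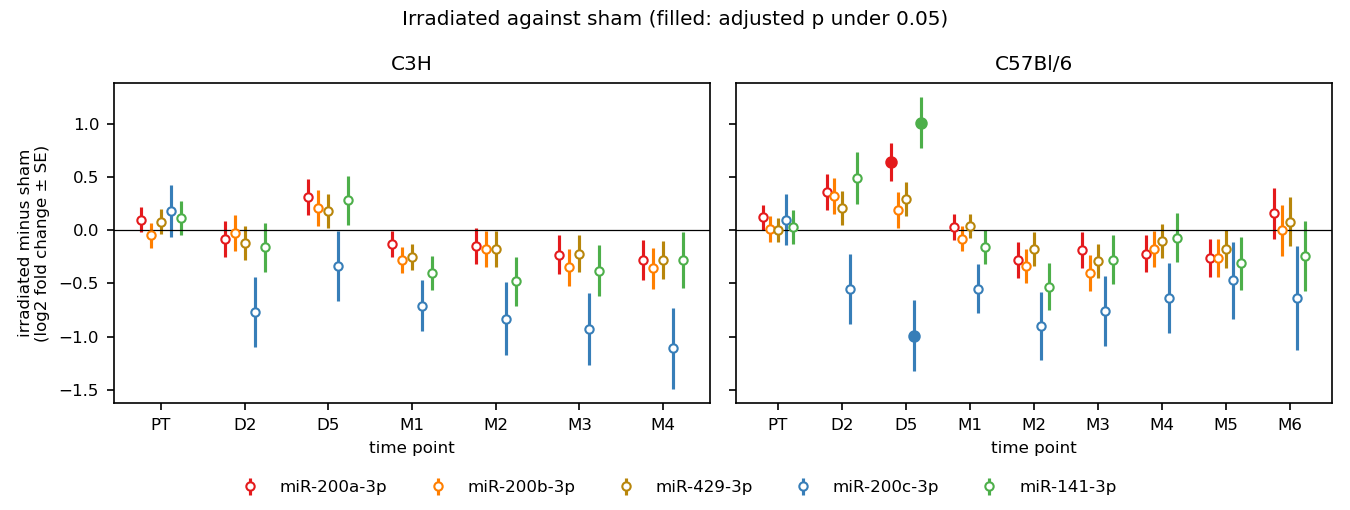
Log2 fold change of irradiated against sham mice (± standard error) for each member and time point, in C3H (left) and C57Bl/6 (right); filled points passed the adjusted threshold. The 3 filled points are miR-200a-3p (0.64), miR-141-3p (1.01) and miR-200c-3p (-0.99) in C57Bl/6 at day 5, and miR-200c-3p is below 0 at all time points after irradiation.

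At day 5 in C57Bl/6 mice, miR-200a-3p and miR-141-3p were higher and miR-200c-3p was lower in irradiated than in sham mice. The cluster partners miR-141-3p and miR-200c-3p thus passed in opposite directions, while miR-200a-3p and miR-141-3p, which share a seed, both passed upward. The level of miR-141-3p was 765, 1093 and 3364 CPM (lowest, median and highest) in 16 sham mice and 829, 1996 and 19977 CPM in 32 irradiated mice. Its log2 fold change was 1.01 (SE 0.24, adjusted p = 6.4e-04). MiR-200a-3p was at 1789, 5391 and 11789 CPM in sham and at 4400, 8037 and 25576 CPM in irradiated mice. This was a log2 fold change of 0.64 (SE 0.18, adjusted p = 0.0041). MiR-200c-3p was at 74.0, 417 and 1090 CPM in sham and at 47.2, 184 and 690 CPM in irradiated mice. Its log2 fold change was -0.99 (SE 0.33, adjusted p = 0.023). The ranges of sham and irradiated mice overlapped for all 3. MiR-200b-3p (0.19, SE 0.17) and miR-429-3p (0.29, SE 0.16) did not pass. At this time point 14.1% of the 483 miRNA were called, and the median log2 fold change was 0.29 over the 5 members and 0.00 over all miRNA tested.

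These day 5 differences were not the same in the 2 sets of mice. In set 3, miR-141-3p had a log2 fold change of 1.70 (SE 0.32), miR-200a-3p of 1.21 (SE 0.26), miR-200b-3p of 0.77 (SE 0.26) and miR-429-3p of 0.70 (SE 0.26), with adjusted p-values of 6.1e-06 to 0.035. In set 1 the same values were 0.17, 0.16, -0.28 and 0.00, with standard errors of 0.22 to 0.30, and none passed. Tested as a difference between the sets, the effect was larger in set 3 by 1.56 (SE 0.43, adjusted p = 0.0041) for miR-141-3p, by 1.08 (SE 0.33, adjusted p = 0.012) for miR-200a-3p and by 1.08 (SE 0.33, adjusted p = 0.013) for miR-200b-3p. Of all miRNA, 17.6% passed this test, which was chosen after the values had been seen, and the median difference over all miRNA was 0.33. MiR-200c-3p was the exception, at -0.97 (SE 0.43) in set 1 and -0.78 (SE 0.39) in set 3, with neither past the threshold alone and no difference between them called (adjusted p = 0.79). In set 1 its mean was lower in irradiated mice of both sexes. In set 3 it was lower in irradiated than in sham females (7.51 and 9.01 log2 CPM), but not in males (7.27 and 7.02).

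Within set 3, the females held both the lowest and the highest values of miR-200a-3p. In the sham females of set 3, miR-200a-3p was at 1789, 2629, 2729 and 11789 CPM, and in the irradiated females at 8938 to 25576 CPM. The 3 lower sham females were below all 32 irradiated mice of this time point. In sham males of set 3 the level was 3730, 4769, 5152 and 6041 CPM, and in irradiated males 4758 to 13535 CPM. Those groups overlapped. MiR-141-3p was at 765, 853, 916 and 1109 CPM in the sham males and at 814, 1019, 1722 and 3364 CPM in the sham females of set 3. The irradiated females ranged from 2402 to 19977 CPM.

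Without the females of set 3, miR-141-3p had a log2 fold change of 0.45, miR-200a-3p of 0.30 and miR-200c-3p of -0.77, and 0 of the 3 calls were left. Without the females or without the males of set 1, miR-200c-3p missed the threshold as well (-0.94 and -0.98, adjusted p = 0.070 and 0.061). With each mouse compared with itself before irradiation (a fixed replicate block in limma-voom), the values were 0.76 (adjusted p = 0.11) for miR-141-3p, 0.59 (adjusted p = 0.091) for miR-200a-3p and -0.92 (adjusted p = 0.19) for miR-200c-3p, and 0 passed. Only the call of miR-141-3p was left when the counts were scaled by total reads alone, by library sizes without red cell miRNA, or without libraries under 500000 reads.

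**Figure D3:**
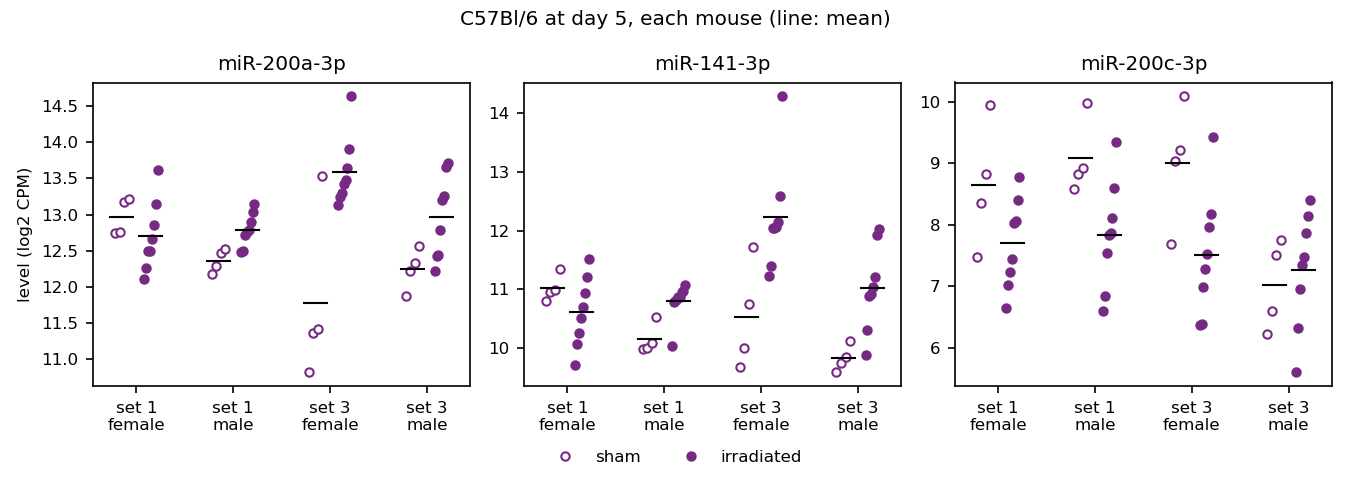
Level (log2 CPM) of miR-200a-3p, miR-141-3p and miR-200c-3p in each C57Bl/6 mouse at day 5, by set and sex, with lines at the mean; open points are sham and filled points irradiated mice. The sham females of set 3 hold the lowest values of miR-200a-3p, down to 10.81 or 1789 CPM, and the highest irradiated value of miR-141-3p, 19977 CPM, is in the irradiated females of that set.

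Other cell types' miRNA moved in the same comparison. Of 7 miRNA of other epithelium, 1 rose, miR-375-3p of endocrine and gut epithelium, with a log2 fold change of 1.22 (SE 0.18, adjusted p = 2.3e-09). Of 3 gut miRNA 1 rose, miR-192-5p (0.75, SE 0.18, adjusted p = 9.8e-04). Of 6 leukocyte and platelet miRNA 4 fell, miR-223-3p, miR-142a-3p, miR-155-5p and miR-150-5p. Of 3 liver miRNA 2 fell, miR-122-5p and miR-122-3p. Of 4 red cell miRNA 1 rose, miR-144-5p. Of 3 pancreatic acinar miRNA none passed.

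The summed leukocyte and platelet list was 13786 to 27254 CPM in sham mice and 8001 to 27704 CPM in irradiated mice. In the females of set 3 it was 23877 to 26322 CPM in 4 sham and 11299 to 16483 CPM in 8 irradiated mice, with no overlap. The females of set 1 did not overlap either, at 16347 to 27254 CPM in sham and 8662 to 12555 CPM in irradiated mice. In the males of either set the ranges overlapped. The red cell list in the females of set 3 was 6305 to 17716 CPM in sham and 16470 to 26511 CPM in irradiated mice. The other epithelial list was 12060 to 20757 CPM in these sham females, against 10415 to 45210 CPM in the irradiated ones. The part of these miRNA in the family's difference was not tested.

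MiR-200c-3p was the member with the steadiest direction. Its level was lower in irradiated than in sham mice in 14 of 14 comparisons after irradiation, by -1.11 to -0.34 on the log2 scale. The other members were lower in 40 and higher in 16 of 56 comparisons. Of the 483 miRNA tested, 13 (2.69%) were lower in all 14 comparisons. Many mice enter several of these comparisons, which are therefore not independent, but the groups changed. Day 2 and day 5 samples came from different mice, and sets 3 and 4 ended with month 1. After month 2, irradiated groups shrank from 28 to 17 mice in C3H (month 4). In C57Bl/6 they shrank from 36 to 8 (month 6). Each sham group held 16. The paper reports deaths of irradiated mice from late injury, so the late values set the remaining irradiated mice against sham mice. The part of this loss in the values was not tested. Of the 14 values of miR-200c-3p, 9 had an unadjusted p under 0.05 and 1 passed after adjustment, so that most of them are not separated from the spread between mice once all miRNA are considered.

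In C3H mice the values of miR-200c-3p were -0.77 (SE 0.33) at day 2, -0.34 (SE 0.33) at day 5, -0.71 (SE 0.24) at month 1, -0.83 (SE 0.34) at month 2, -0.93 (SE 0.34) at month 3 and -1.11 (SE 0.38) at month 4. The lowest adjusted p was 0.062, at month 1. In C57Bl/6 mice the other values lay between -0.90 (SE 0.32) at month 2, with an adjusted p of 0.088, and -0.47 (SE 0.36) at month 5. At month 4, miR-200c-3p was at 157, 310 and 3958 CPM in 16 sham C3H mice and at 113, 291 and 789 CPM in 17 irradiated ones. The medians were close and the highest sham mice lay far above the irradiated range. In C57Bl/6 at the same time it was at 120, 642 and 3447 CPM in 16 sham and at 91.0, 296 and 2593 CPM in 29 irradiated mice. There the medians were apart and the ranges overlapped over most of their length.

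The strains were then compared for their irradiation effect. By an F test on the 6 time points that both strains have, 0 of 5 members differed between C57Bl/6 and C3H (adjusted p = 0.56 to 0.97), where 4.35% of the miRNA did. The number with an unadjusted p under 0.05 was also 0, and DESeq2 and limma-voom called 0. At day 5, where C57Bl/6 had its calls, the C3H values were 0.31 for miR-200a-3p and 0.28 for miR-141-3p, with standard errors of 0.17 and 0.23. Of the 4 partner strands tested, none passed in any of the 14 comparisons, and the closest was miR-141-5p at month 2 in C57Bl/6 (-0.91, SE 0.31, adjusted p = 0.087). MiR-141-5p was lower in irradiated mice in 13 of the 14, a count that was not set against all miRNA. At day 5 in C57Bl/6, miR-200c-5p was at 1.10 (SE 0.49, adjusted p = 0.11), opposite in sign to miR-200c-3p. The values of miR-200a-5p, miR-141-5p and miR-200b-5p there were 0.43, 0.38 and -0.39.

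Before irradiation the strains differed in 3 of 5 members, with 50.7% of all miRNA called. MiR-200a-3p was at 1230, 3992 and 14961 CPM in 96 C3H mice and at 3827, 8727 and 18587 CPM in 96 C57Bl/6 mice. C57Bl/6 was higher by 0.97 on the log2 scale (SE 0.09, adjusted p = 5.5e-26). MiR-200c-3p was at 49.6, 268 and 1724 CPM in C3H and at 22.4, 138 and 378 CPM in C57Bl/6, and C57Bl/6 was lower (-1.36, SE 0.17, adjusted p = 1.1e-13). MiR-429-3p was higher in C57Bl/6 by 0.19 (SE 0.08, adjusted p = 0.035). MiR-200b-3p (0.16, SE 0.08) and miR-141-3p (-0.09, SE 0.12) did not pass. The median over the members was 0.16, and over all miRNA -0.02.

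Most of these differences depended on which sets of mice were compared. Within C3H, set 4 was higher than set 2 in miR-141-3p by 1.43 (SE 0.15, adjusted p = 1.3e-18), in miR-200a-3p by 0.86 (SE 0.12, adjusted p = 4.2e-12) and in miR-429-3p by 0.75 (SE 0.11, adjusted p = 3.6e-10). In the same comparison miR-200c-3p was lower by -2.23 (SE 0.23, adjusted p = 3.1e-20), from a median of 501 CPM in set 2 to 121 CPM in set 4. So 4 of 5 members differed between sets of one strain, where 54.9% of the miRNA did, and the cluster partners miR-141-3p and miR-200c-3p did so in opposite directions. The lowest value of miR-200c-3p in set 2, 166 CPM, was above the median of set 4. In C57Bl/6 none of the 5 members passed between the 2 sets (-0.46 to 0.34), with 31.5% of all miRNA called. The lowest adjusted p was 0.065, for miR-141-3p. Before adjustment, p by the same quasi-likelihood test was 0.022 for miR-141-3p, 0.028 for miR-200b-3p and 0.037 for miR-200c-3p.

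**Figure D4:**
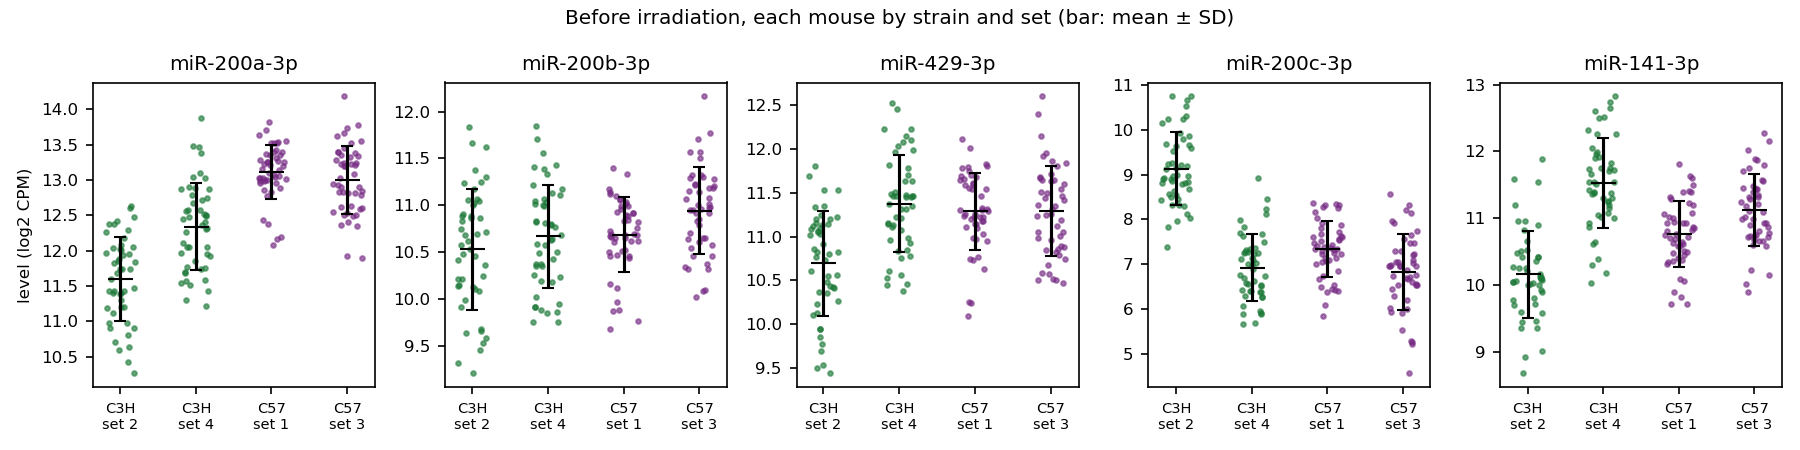
Level (log2 CPM) of each member before irradiation in each mouse, by strain and set, with mean ± SD (48 mice in each set). In C3H, set 2 is high in miR-200c-3p (9.13 ± 0.81) and low in miR-141-3p (10.17 ± 0.65) against set 4 (6.92 ± 0.75 and 11.53 ± 0.67). The C57Bl/6 sets lie closer to each other in both of these members.

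With each C57Bl/6 set compared with each C3H set, 47.3% of all tests were called, and the median over all miRNA was -0.14 to 0.11. MiR-200a-3p was higher in C57Bl/6 in all 4 comparisons, by 0.56 to 1.52 (adjusted p = 1.3e-05 or lower). MiR-200c-3p was lower against set 2 (-1.87 and -2.33) and not distinguishable against set 4 (0.36 and -0.10, adjusted p = 0.17 and 0.76). MiR-141-3p changed sides. It was higher in C57Bl/6 against set 2 (0.61 and 0.96) and lower against set 4 (-0.82 and -0.47), and all 4 passed (adjusted p = 0.0061 or lower). MiR-429-3p was higher against set 2 only (0.61 and 0.63, against -0.14 and -0.12 for set 4). The strain difference of miR-200a-3p was thus the one that held in every pair of sets. These 4 comparisons reuse 2 sets in each strain, and their errors hold the spread between mice and not that between sets. The C3H sets themselves differed by 0.86 in this member, and strain and set cannot be fully told apart.

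The C3H sets also differed in other lists, some of them in both directions. In set 4, 3 of 7 miRNA of other epithelium were higher and 1 lower. The red cell list had 2 of 4 higher and 2 lower, and the leukocyte and platelet list 3 of 6 higher and 3 lower. All 3 gut, 2 of 3 liver and 1 of 3 pancreatic acinar miRNA were higher. Within the epithelial list, miR-203-3p of stratified epithelium was higher (1.35, SE 0.16, adjusted p = 1.9e-15) and miR-183-5p lower (-1.07, SE 0.19, adjusted p = 6.5e-08). Within the leukocyte and platelet list, miR-146a-5p was higher (0.99, SE 0.09, adjusted p = 9.5e-24) and miR-223-3p of myeloid cells lower (-1.36, SE 0.11, adjusted p = 6.2e-31). The summed red cell list was 31416 to 157293 CPM in set 2 and 20156 to 74616 CPM in set 4, and the summed epithelial list 4656 to 21093 and 5388 to 22008 CPM. Total reads were 513790 to 3606324 in set 2 and 747230 to 4095407 in set 4. The part of these differences in those of the family was not tested, and what the sets stand for is not stated in the labels.

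Whether members rose and fell together was asked over the mice before irradiation, 1 sample per mouse, in 20 pairs (10 in each strain). By permutation of mice with Benjamini-Hochberg adjustment over the 20 pairs, 18 were correlated. MiR-200a-3p, miR-200b-3p, miR-429-3p and miR-141-3p formed the tight part. In C3H their Pearson r was 0.60 to 0.93 and in C57Bl/6 0.70 to 0.90, with Spearman's rho of 0.58 to 0.92 and 0.67 to 0.89 and adjusted permutation p-values of 1.5e-05, from the smallest p that the permutations can give. The pair across clusters that shares a seed, miR-200a-3p and miR-141-3p, had r = 0.86 in C3H and 0.70 in C57Bl/6. After the 2 mice farthest from the median were left out, the lowest r among these pairs was 0.56.

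MiR-200c-3p followed the others more loosely, and in C3H its relations turned with the sets. Against its cluster partner miR-141-3p, r over all 96 C3H mice was -0.33 (rho = -0.36, adjusted permutation p = 0.0013 and 3.9e-04), -0.35 without the 2 farthest mice, and -0.20 (adjusted permutation p = 0.055) with scaling by total reads. With the means of each set and sex removed, r was 0.74 (rho = 0.69, adjusted permutation p = 1.1e-05 for both). The 2 C3H sets form separate clusters in this pair, so the pooled value describes mainly the difference between sets. The value within sets describes the samples, 1 per mouse, so that differences between mice and between samples cannot be told apart. Over all time points, the intraclass correlation of samples of the same mouse was 0.16 for miR-200c-3p and 0.04 for miR-141-3p. In C57Bl/6 the same pair had r = 0.34 (rho = 0.33, adjusted permutation p = 9.1e-04 and 0.0015; 0.35 without the 2 farthest) and 0.48 within set and sex. Within set and sex, all 20 pairs were positively correlated and passed.

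**Figure D5:**
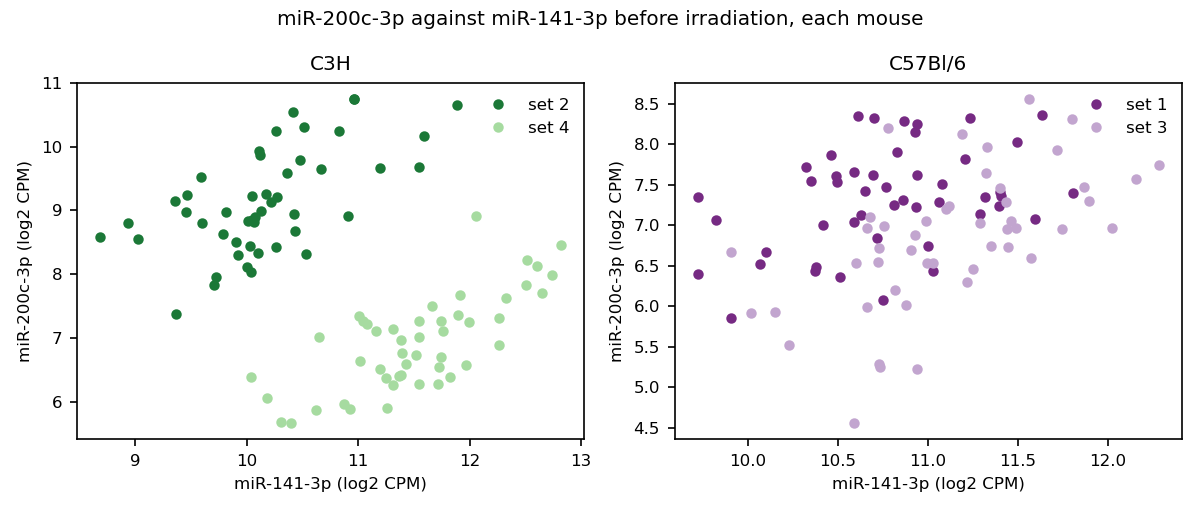
Level of miR-200c-3p against that of miR-141-3p (log2 CPM) before irradiation, 1 point for each mouse, coloured by set, for C3H (left) and C57Bl/6 (right). In C3H the sets are displaced along opposite directions of the axes (r = -0.33 over all mice), while within a set both rise together (r = 0.74 with set and sex means removed).

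Over all samples, after the mean of each group was subtracted, the miRNA most like each member were found by Spearman's rho, as a description. For miR-200a-3p they were miR-429-3p (0.86), miR-200b-3p (0.84) and miR-141-3p (0.75). For miR-200b-3p they were miR-429-3p (0.89), miR-200a-3p (0.84) and miR-141-3p (0.70), and for miR-429-3p they were miR-200b-3p (0.89), miR-200a-3p (0.86) and miR-141-3p (0.76). For miR-141-3p they were again miR-429-3p (0.76), miR-200a-3p (0.75) and miR-200b-3p (0.70). These 4 members were each other's nearest 3 among 482 others. The samples share mice, depth and scaling.

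MiR-200c-3p had another neighbourhood. The most like miRNA were miR-183-5p (0.80), let-7c-5p (0.80) and let-7b-5p (0.77). With the sets of a strain pooled, its nearest family member, miR-200b-3p, was at rank 14 (0.50). Its cluster partner miR-141-3p was at rank 30 (0.36) and its own partner strand miR-200c-5p at rank 38 (0.32). Of the strands from its own cluster, miR-141-5p was the nearest, at rank 10 (0.55), above every member of the family. Within each of the 4 sets, miR-141-3p rather than miR-200b-3p was the nearest member. Its rho there was 0.48 to 0.69, against 0.42 to 0.63 for miR-200b-3p and 0.76 to 0.80 for miR-183-5p. The sequences of the 3 neighbours are shown because they share neither seed with the family.
mmu-miR-183-5p: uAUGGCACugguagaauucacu
mmu-let-7c-5p: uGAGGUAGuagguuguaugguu
mmu-let-7b-5p: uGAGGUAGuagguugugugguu

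The last main comparison followed sham mice over time, the background against which the irradiated mice were read. By an F test of the later time points against the sham samples before irradiation, 5 of 5 members changed in C3H and 5 of 5 in C57Bl/6, where 46.0% and 62.9% of all miRNA did. Time here also means age, repeated bleeding and the order of sampling, which cannot be told apart.

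At month 4 in C3H, all 5 members were higher than before irradiation, where 38.5% of the miRNA were called in either direction. MiR-200a-3p went from 1230, 4013 and 11359 CPM in 32 mice to 7597, 14867 and 32533 CPM in 16. The log2 fold change was 1.94 (SE 0.16, adjusted p = 2.8e-27). MiR-141-3p rose by 1.72 (SE 0.22, adjusted p = 1.5e-12), miR-200b-3p by 1.39 (SE 0.16, adjusted p = 1.1e-14), miR-429-3p by 1.37 (SE 0.16, adjusted p = 3.1e-15) and miR-200c-3p by 1.15 (SE 0.32, adjusted p = 0.0018). The median over the members was 1.39, against -0.07 over all miRNA. The rise was already there at day 2 for 4 members, with 0.97 for miR-200a-3p and for miR-141-3p, 0.77 for miR-429-3p and 0.72 for miR-200b-3p (adjusted p = 2.4e-04 or lower), and miR-200c-3p was at 0.00. At day 2, 25.7% of the miRNA were called.

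Set 2, the C3H set followed beyond month 1, was before irradiation the set with low miR-141-3p, miR-200a-3p and miR-429-3p and high miR-200c-3p. Within set 2 alone, the rise at month 4 was larger for 4 members, 2.74 (SE 0.26) for miR-141-3p, 2.62 (SE 0.20) for miR-200a-3p, 1.93 (SE 0.18) for miR-429-3p and 1.59 (SE 0.20) for miR-200b-3p. For miR-200c-3p it was 0.37 (SE 0.36, adjusted p = 0.43), and its F test did not pass either (adjusted p = 0.054). With the mouse as a fixed block the F test of miR-200c-3p in C3H also missed the threshold (adjusted p = 0.68; 0.23 at month 4, adjusted p = 0.53), while the other members kept theirs.

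In C57Bl/6 the change had another shape. At month 4 all 5 members were higher than before, with 29.6% of the miRNA called, and the largest value was that of miR-200c-3p. It went from 22.4, 139 and 319 CPM in 32 mice to 120, 642 and 3447 CPM in 16, a log2 fold change of 2.45 (SE 0.32, adjusted p = 6.7e-12). MiR-141-3p rose by 1.42 (SE 0.22, adjusted p = 8.9e-09), miR-200b-3p by 0.74 (SE 0.17, adjusted p = 8.0e-05), miR-200a-3p by 0.68 (SE 0.17, adjusted p = 3.5e-04) and miR-429-3p by 0.57 (SE 0.16, adjusted p = 0.0020). The median over the members was 0.74, against -0.01 over all miRNA. Within set 1 alone these values were 2.07, 1.44, 0.72, 0.47 and 0.43, and that of miR-429-3p did not pass (adjusted p = 0.056).

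The early samples of sham C57Bl/6 mice separated miR-200c-3p from miR-200a-3p. At day 5, miR-200c-3p was higher than before irradiation by 1.62 (SE 0.33, adjusted p = 8.7e-06), while miR-200a-3p was lower (-0.55, SE 0.18, adjusted p = 0.0087) and the other 3 members did not pass, with 30.0% of the miRNA called. In set 1 alone the value of miR-200a-3p was the same -0.55 and missed the threshold (adjusted p = 0.070). These are the sham mice against which the irradiated mice of day 5 were set. At day 5 the irradiated mice had a mean miR-200a-3p of 13.01 ± 0.57 log2 CPM, and the sham mice 12.34 ± 0.72, against 13.00 ± 0.33 in sham mice before irradiation. The corresponding means of miR-141-3p were 11.16 ± 0.91, 10.38 ± 0.64 and 10.95 ± 0.48, and those of miR-200c-3p 7.58 ± 0.89, 8.44 ± 1.15 and 6.98 ± 0.88. For all 3, the irradiated mice were nearer to the level before irradiation than the sham mice were.

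The change over time in sham mice differed between the strains for 5 of 5 members in an F test (adjusted p = 3.6e-08 to 0.0023). It covered the 6 shared time points, and 43.5% of all miRNA differed in it. Before irradiation the samples held both sets of each strain, and after month 1 sets 1 and 2 only. Other miRNA moved over the same months. Of 7 miRNA of other epithelium, 6 rose at month 4 in C3H, all but miR-375-3p, and in C57Bl/6 5 rose and miR-375-3p fell (-0.58, SE 0.17, adjusted p = 0.0048). MiR-183-5p, of the sensory and epithelial miR-183 cluster, rose by 0.80 (SE 0.27) and 1.49 (SE 0.26), and miR-205-5p, of squamous and glandular epithelium, by 1.38 (SE 0.19) and 0.52 (SE 0.19). Of 4 red cell miRNA 3 fell in either strain. Of 6 leukocyte and platelet miRNA, 1 rose and 2 fell in C3H, and 3 rose in C57Bl/6. Among them, miR-223-3p fell in C3H (-1.54, SE 0.19) and rose in C57Bl/6 (1.15, SE 0.17), and miR-146a-5p rose in C3H (0.50, SE 0.14). Of 3 liver miRNA, 2 fell in C3H and none passed in C57Bl/6, and of 3 pancreatic acinar miRNA none passed in C3H and 1 fell in C57Bl/6. Of the 3 gut miRNA none passed in C3H and 1 rose and 1 fell in C57Bl/6. The summed list of other epithelium in sham C3H mice was at 5729 to 17586 CPM before irradiation and 9205 to 61000 CPM at month 4, and that of C57Bl/6 6338 to 17059 and 7045 to 52211 CPM. The part of these miRNA in the family's rise was not tested.

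The partner strands gave a second reading of the same hairpins. All 4 tested strands changed over time in sham mice of both strains, where 46.0% of all miRNA did in C3H and 62.9% in C57Bl/6. The C3H samples before irradiation held sets 2 and 4, and those at month 4 set 2 only. At month 4 in C3H, miR-141-5p had risen by 2.15 (SE 0.31), miR-200a-5p by 1.96 (SE 0.27), miR-200c-5p by 1.90 (SE 0.40) and miR-200b-5p by 1.32 (SE 0.23). In C57Bl/6 the value of miR-200c-5p was 0.98 (SE 0.42, adjusted p = 0.063), below that of miR-200c-3p. Before irradiation, the C3H sets differed in miR-200a-5p (0.66, SE 0.20, adjusted p = 0.0036), and miR-200c-5p was at 0.52 (SE 0.31, adjusted p = 0.15) in set 4 against set 2, where its partner miR-200c-3p was lower.

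Males and females were compared before irradiation. In C3H, 2 of 5 members were lower in males, miR-200a-3p (-0.35, SE 0.12, adjusted p = 0.028) and miR-429-3p (-0.31, SE 0.11, adjusted p = 0.038), with 14.5% of the miRNA called. In C57Bl/6, miR-429-3p was lower in males (-0.41, SE 0.11, adjusted p = 0.0028), with 14.7% called. Its level was 1451, 2860 and 6214 CPM in 48 females and 1093, 2217 and 3976 CPM in 48 males. The ranges overlapped, and the highest females lay above the highest male. Within sets 1 and 2, with fewer mice, the differences had the same direction and did not pass. There miR-429-3p was at -0.36 (SE 0.15) in C57Bl/6 and at -0.28 (SE 0.15) in C3H, and miR-200a-3p at -0.26 (SE 0.15) in C3H. When scaled by total reads alone, the difference in C57Bl/6 did not pass.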

How the data were processed

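Plasma small RNA was sequenced by the authors (QIAseq miRNA libraries, Illumina NextSeq). They trimmed the reads and aligned them to mouse miRNA with an Illumina BaseSpace application (mm10, per the labels), leaving out hemolysed plasma and shallow runs. The authors deposited raw counts of reads per mature miRNA. Whether molecular identifiers were collapsed and which miRBase release was used are not given in the sources used here, so precision from depth covers counting error only.

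Counts were analysed in R 4.3.3 with edgeR 4.0.16 (TMM, filterByExpr, 483 miRNA with 99.99% of reads, quasi-likelihood F tests, a mean for each of 32 groups, 867 residual degrees of freedom). Benjamini-Hochberg adjustment ran over all tested miRNA within a contrast, with a threshold of 0.05. Log2 CPM used a prior count of 2. The SE is the log2 fold change divided by the square root of F. Correlations used 100000 permutations of mice.

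Alternatives used limma 3.58.1 and DESeq2 1.42.0, other scalings and filters (500000 reads, a mean of 10 CPM), and mice or sets as terms. Samples with the same number come from the same mouse, as the labels give, so the mouse was also used as a replicate block. Over samples of the same mouse the consensus correlation was 0.0434. Comparisons between sets of mice, sham mice of sets 1 and 2 alone, samples without a set and sex at day 5, and the strain test of sham mice over time were added after seeing the data. The procedure was tested on simulated data. Named were the 5 members, their partner strands, the 3 miRNA most like each member, and marker lists; members and lists were chosen with earlier results of these data known. Named miRNA were taken from marker lists after their values were seen. Sequences are from RefSeq and gene positions from GENCODE.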

Additional observations from a re-analysis of the deposited data

Results flagged for a closer look

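The change over time in sham mice differed between C57Bl/6 and C3H for every member, by edgeR's F test over the shared time points. In the same test 43.5% of all miRNA differed, and the samples after month 1 held sets 1 and 2 only. The adjusted p was 3.6e-08 for miR-200a-3p, 0.0023 for miR-200b-3p, 1.4e-04 for miR-429-3p, 1.1e-05 for miR-200c-3p and 3.9e-04 for miR-141-3p.

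The effect of irradiation at day 5 in C57Bl/6 differed between the 2 sets of mice for 3 members, where 17.6% of all miRNA differed. On the log2 scale, set 3 exceeded set 1 by 1.08 for miR-200a-3p, by 1.08 for miR-200b-3p and by 1.56 for miR-141-3p, in a test chosen after the values had been seen.

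In the group of 8 irradiated C57Bl/6 mice at month 6, the only group of a size at which single outlying samples were looked for, none was found in the 5 members.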

How the results depend on the processing

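The count of 3 calls of irradiated against sham C57Bl/6 mice fell to 1 when scaled by total reads or by library sizes without red cell miRNA, to 0 in set 1, to 0 without the females of set 3 (an alternative chosen after seeing the data), and to 0 with the mouse as a fixed replicate block. In C3H it went from 0 to 1 when only the groups compared were fitted. The count of 2 sex differences in C3H was 1 with quantile normalization, 0 in set 2 and 1 in set 4. That of 1 in C57Bl/6 was 0 with total reads or without red cell miRNA, 2 with a mean of at least 10 CPM, and 0 in set 1. The count of 3 strain differences before irradiation was 5 for set 3 against set 2. The cause was not tested, beyond the smaller number of mice where sets were fitted alone.

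Some values changed direction. Before irradiation, the strain difference of miR-141-3p was 0.10 with limma-voom, 0.10 with the mouse as a random replicate block, 0.16 with quantile normalization, 0.66 within sets 1 and 2, and 0.61 and 0.96 for sets 1 and 3 against set 2. That of miR-429-3p was -0.13 within sets 3 and 4, and -0.14 and -0.12 for sets 1 and 3 against set 4. For set 1 against set 4, miR-200b-3p was at -0.06 and miR-200c-3p at 0.36. The day 5 value of miR-200b-3p in C57Bl/6 was -0.28 in set 1 and -0.13 without the females of set 3, and the day 2 value of miR-200c-3p was 0.01 in set 3. In C3H before irradiation, r of miR-200c-3p within set and sex was 0.62 with miR-200a-3p, 0.57 with miR-429-3p and 0.74 with miR-141-3p. In the 14 fits that give all 14 comparisons, 196 of 196 values of miR-200c-3p were negative (-1.11 to -0.10), and 13 passed. Of 716 values of the other 52 comparisons of a member between irradiated and sham mice under alternatives, 32 had another sign, all of them at 0.31 or less in size at first, and 0 passed.

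With a replicate block, miR-200c-3p at day 5 in C57Bl/6 (random block) and in sham C3H mice at month 4 (0.23, fixed block) also missed the threshold, as did its F test in sham C3H mice (adjusted p = 0.68), and miR-200b-3p passed between strains (0.20, random block). The fixed block also removed the day 5 calls of miR-141-3p, miR-200a-3p and miR-200c-3p in C57Bl/6. Replicate blocks changed no other call of a named value. Depth limits miR-200c-5p and the other partner strands most, with median counts of 7 to 31 reads.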
